A study of Gallus gallus with 6 samples.

Results

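Animal cells are held together by junctions that are built from a few gene families, and 73 such genes were read from 6 chicken arrays of wounded and uninjured chorioallantoic membrane (CAM), the vascularised membrane under the shell of the chick egg. They were chosen by annotated symbol alone: numbered cadherins (CDH), protocadherins (PCDH), numbered claudins (CLDN), connexins (GJA, GJB, GJC, GJD), the TJP scaffolds, desmogleins (DSG), desmocollins (DSC), DSP, JUP, PKP1 to PKP3 and OCLN. The vascular members CDH5 and CLDN5 were left out by this choice and appear below only as endothelial markers. Among 13009 genes with a symbol of their own on the array, the 73 were represented by 140 probe sets, and the probe set of highest mean over the 6 arrays stood for each gene. Of the 73, 69 fell into 5 classes, namely 18 cadherins, 15 protocadherins, 17 tight junction genes, 11 connexins and 8 desmosome genes. The other 4, DSCAM, DSCAML1, DSCC1 and DSCR3, share only the letters DSC with the desmocollins, are not junction genes, and differed between wound and control by 0.00, -0.00, 0.39 and 0.04 on the log2 scale, with 0 of 4 past the test.

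Control samples were uninjured CAM and wound samples were CAM of the same eggs, from brown leghorn chick embryos, 3 of each. Embryos had been cultured for 10 days, 3 in the shell and 7 in dishes, when the membrane was cut superficially with a scalpel, its epithelium was scraped away and a nylon grid was laid on it. Both kinds of tissue were taken 6 days later, so no array shows the injury as it was made, and the wound sample contains all cells of the healing tissue. In such bulk samples, fewer cells of a type and less RNA per cell cannot be told apart.

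Cadherins bind their like on the neighbouring cell in the presence of calcium and are tied by catenins to actin at adherens junctions. In desmosomes, desmogleins and desmocollins are tied by plakoglobin (JUP), plakophilins and desmoplakin (DSP) to keratin filaments, whereas claudins and occludin seal the space between epithelial cells at tight junctions and TJP scaffolds anchor them. Connexins form gap junction channels through which neighbouring cells exchange ions and small molecules. In the CAM, junctions of these kinds join the cells of both epithelial sheets, and some of the kinds, not desmosomes, join the endothelium of the vessels between.

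Of the junction genes, 4 passed the test between wound and control. Claudin CLDN1 and plakophilin PKP1 were up-regulated, by 0.79 ± 0.04 and 1.25 ± 0.18 (difference of log2 means ± SE, 3 wound and 3 control arrays), and cadherin CDH4 and protocadherin PCDH18 were down-regulated, having dropped by 0.61 ± 0.06 and 0.78 ± 0.09. The widest differences were seen in connexins, with GJB6 higher in wound and GJA4 and GJA5 lower, and none of these 3 passed. The test was unpaired limma on the log2 intensities, with a threshold of 0.05 on the Benjamini-Hochberg adjusted p over 38439 probe sets. By it, 2 of 73 genes were higher in wound, where 3.92% of the genes of the array taken in the same way (2.04% of all probe sets) were higher, and 2 of 73 were lower, where 0.392% of genes (0.304% of probe sets) were. Only PKP1 also exceeded a fold change of 2, which 1.06% of genes (0.541% of probe sets) did upward and 0.184% (0.13%) downward. With the replicate number as a block, CLDN1 alone passed, 1 of 73 higher beside 1.31% of genes (0.702% of probe sets) and 0 lower beside 0.138% (0.117%). After quantile normalization of the deposited values, or without control 2, 0 of 73 passed, and only CLDN1 passed without control 3, wound 1 or wound 2. With trended variances GJB6 and GJA4 passed besides the 4 genes (limma adjusted p = 0.0419 and 0.0489). That made 3 of 73 higher, beside 240 of 13009 genes, and 3 lower, beside 32.

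Apart from the test, in 15 of 69 junction genes every wound array lay above every control array and in 8 every wound array lay below, beside 20.8% and 7.81% of all genes (13.7% and 6.12% of all probe sets). At an unadjusted p under 0.05, 10 of the 69 were higher and 7 lower, beside 17.5% and 5.93% of all genes (10.1% and 4.29% of all probe sets). Of the 69 genes, 33 were dimmer than the median probe set (3.05 on the log2 scale), and 29 of these differed by less than 0.1 between the groups. The remaining 4 dim genes were CDH4, PCDH20, PCDH7 and CLDN16. Of the 36 brighter genes, the groups stood apart with wound above in 13 and wound below in 7, and overlapped in 16. The shares above are over all 13009 genes, of which 3672 are dim, and none is given for brighter genes alone. These counts are therefore not set against a background.

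The brightness of a probe set itself moved with the difference between wound and control. Over all probe sets the median difference was -0.00 below a mean of 3, 0.16 between 7 and 8 and 0.40 between 10 and 11. After quantile normalization of the deposited values these medians were 0.00, -0.00 and 0.03. The deposited values are named as RMA, yet this shift remained in them, and their exact normalization is not stated. The shift bears on every value given here as higher in wound. Relative to the median of probe sets of like brightness (within 0.5 of their own mean), 18 of the 36 brighter junction genes were higher and 18 lower. For bright genes such as CLDN1, CDH1, DSP and JUP, this reference is given below beside the difference, and its part in the result was not tested.

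**Figure D1:**
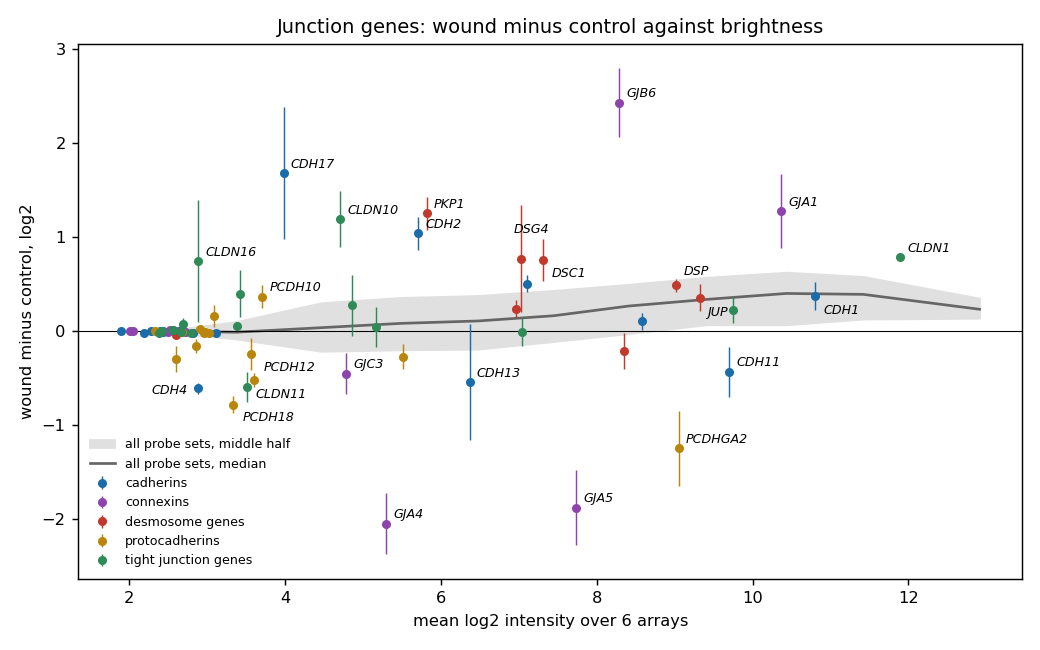
Difference between wound and control on the log2 scale (y axis) against mean log2 intensity over 6 arrays (x axis) for 69 junction genes. Points are differences with bars of 1 SE, colours are the 5 classes, the grey line is the median of all probe sets and the band their middle 50%. GJB6 (2.43), GJA4 (-2.05) and GJA5 (-1.88) lie farthest from the grey line, whereas CLDN1 (0.79) is a bright gene with a small SE.

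Connexins gave the widest spread of any class, from -2.05 to 2.43. GJB6, a connexin of stratified epithelia in mammals, measured 7.72, 6.72 and 6.79 in controls 1, 2 and 3 and 9.90, 9.08 and 9.54 in the wounds of equal number. Every wound array was therefore brighter than every control array, and the difference of 2.43 ± 0.36 is a fold change of 5.39 (limma adjusted p = 0.0531). A further GJB6 probe set passed the test, with a difference of 2.21 ± 0.26 (limma adjusted p = 0.0332, and 0.0568 with the replicate number as a block). GJA1, the most widely expressed connexin of vertebrate tissues, measured 10.35, 9.75 and 9.08 in controls and 11.39, 10.61 and 10.997 in wounds. The groups did not overlap, but the control arrays spread over more than 1 log2 unit, and the difference of 1.28 ± 0.39 did not pass (limma adjusted p = 0.231). Probe sets as bright as GJA1 had a median difference of 0.38, and after quantile normalization its difference was 0.91.

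GJA4 and GJA5, connexins of arterial endothelium in mammals, were both dimmer in every wound than in any control. For GJA4 the controls read 6.11, 6.27 and 6.57 and the wounds 4.17, 3.75 and 4.89, which made the control level 4.13 times that of wound (limma adjusted p = 0.0604). GJA5 read 8.49, 8.66 and 8.86 in controls and 6.50, 6.25 and 7.63 in wounds, 3.67 times as high in control (limma adjusted p = 0.107). In both genes wound 3 stood nearer to the controls than wounds 1 and 2, and without wound 3 both passed the test. GJC3 showed the same order of wounds, with 5.06, 4.90 and 5.07 in controls and 4.47, 4.21 and 4.99 in wounds, and its groups overlapped (difference -0.45 ± 0.22, limma adjusted p = 0.478). The other 6 connexins, GJA3, GJA10, GJB1, GJD2, GJD3 and GJD4, were dimmer than the median probe set on all 6 arrays, and each differed by no more than 0.01, with 0 of 6 past the test.

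**Figure D2:**
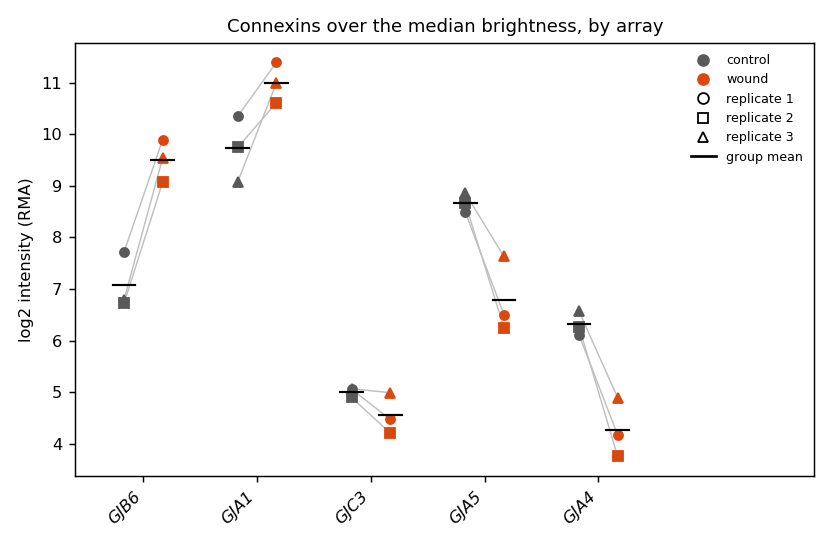
Log2 intensity on each of 6 arrays (y axis) for the 5 connexins brighter than the median probe set (x axis). Grey symbols are controls, orange symbols wounds, symbol shapes replicate numbers, thin lines join equal numbers and black bars are group means. GJB6 and GJA1 are higher in all wounds, GJA5 and GJA4 lower in all wounds, and wound 3 is the highest wound array for GJA5, GJA4 and GJC3.

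Most endothelial markers were lower in wound, as GJA4 and GJA5 were. Of 14 such markers measured out of 14 listed, 11 were lower in every wound than in any control, beside 7.81% of all genes, and 1 passed the test, beside 0.392% (EGFL7, which fell by 1.18, limma adjusted p = 0.0384, and 0.121 with the block). The median difference of the list was -0.92. Their summed linear intensity ranged from 5445 to 6358 in controls and from 2615 to 4339 in wounds, and ROBO4 was dimmer than the median probe set on all arrays. Taken by equal replicate number, the median difference of the list was -1.05, -1.03 and -0.64, the last for wound 3. The vascular junction genes that the naming choice left out differed from each other: CDH5, the cadherin of endothelial adherens junctions, read 10.43, 10.40 and 10.95 in controls and 9.42, 9.20 and 10.28 in wounds, whereas CLDN5, the claudin of endothelial tight junctions, read 8.99, 8.68 and 8.93 against 8.22, 9.11 and 9.06. Neither passed (limma adjusted p = 0.305 and 0.995). The part of these markers in the connexin values was not tested.

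Of the 8 desmosome genes, 6 had a higher mean in wound, 1 of them (PKP1) by the test, and in those 6 every wound array exceeded the control of its number, beside 32.8% of all genes. PKP1, a desmosomal plaque protein of stratified epithelia, measured 5.07, 5.39 and 5.12 in controls and 6.46, 6.73 and 6.15 in wounds. The groups stood well apart, and the fold change was 2.38 (limma adjusted p = 0.047). With the replicate number as a block the adjusted p was 0.0595. DSP, the plaque protein that binds keratin filaments, measured 8.83, 8.84 and 8.66 in controls and 9.26, 9.35 and 9.17 in wounds. All wounds were brighter, by 0.48 ± 0.07, where probe sets of like brightness had a median difference of 0.33 (limma adjusted p = 0.0502). Both other DSP probe sets passed, at 0.62 ± 0.04 and 0.72 ± 0.06 (limma adjusted p = 0.0147 and 0.019, and 0.0624 and 0.064 with the block).

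The desmosomal cadherins DSC1, DSG4 and DSG2, which bridge the gap between cells, were brighter in each wound than in the control of equal number. DSC1 measured 6.94, 6.74 and 7.10 in controls and 8.12, 7.44 and 7.48 in wounds, a difference of 0.75 ± 0.22 (limma adjusted p = 0.213). DSG4 read 7.14, 6.02 and 6.77 in controls and 8.45, 6.67 and 7.13 in wounds, and its groups overlapped because the arrays of number 1 were the highest in both groups (difference 0.77 ± 0.57, limma adjusted p = 0.726). DSG2, chosen after its values were seen, measured 6.91, 6.74 and 6.90 against 7.24, 6.93 and 7.08, a difference of 0.24 ± 0.09 (limma adjusted p = 0.373). None of these 3 passed the test, and the differences of DSG2 and DSG4 lay within intervals that included 0 (95% CI -0.01 to 0.48 and -0.71 to 2.25). JUP, which sits in both desmosomes and adherens junctions, read 9.27, 9.01 and 9.16 in controls and 9.57, 9.23 and 9.70 in wounds. Its groups overlapped, and its difference of 0.35 ± 0.14 equalled the median of 0.35 for probe sets of like brightness (limma adjusted p = 0.379). A further, dimmer JUP probe set differed by 0.42 ± 0.19 where like probe sets had 0.12, and its groups overlapped too (limma adjusted p = 0.44). Plakophilin PKP2, which also occurs in the heart, went the other way in each pair of equal number, with 8.20, 8.55 and 8.62 in controls and 8.09, 8.07 and 8.57 in wounds (difference -0.21 ± 0.19, limma adjusted p = 0.798), and PKP3 was dim throughout. The median over the 8 genes was 0.42, beside 0.01 over all genes of the array, and 0.15 after quantile normalization. Of the 8, 7 were brighter than the median probe set, and the median of their references of like brightness was 0.14 over the 8.

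Among the cadherins, only CDH4 passed the test. CDH4, a cadherin known from the developing nervous system, measured 3.31, 3.15 and 3.11 in controls and 2.58, 2.59 and 2.58 in wounds. It thus lay close to the dim end of the array in all samples, and fell by 0.61 ± 0.06 (limma adjusted p = 0.0229). With the block its adjusted p was 0.066, and a further CDH4 probe set, dimmer still, differed by 0.01 ± 0.01. CDH2 (N-cadherin), the cadherin of neural and mesenchymal cells, measured 5.07, 5.07 and 5.43 in controls and 6.02, 6.52 and 6.15 in wounds. All wounds were brighter, with a fold change of 2.06 (limma adjusted p = 0.0679), and a further CDH2 probe set showed overlapping groups and a smaller difference of 0.46 ± 0.20 (limma adjusted p = 0.426).

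The epithelial cadherins CDH1 (E-cadherin) and CDH3 (P-cadherin) were brighter in every wound without passing the test. CDH1 measured 10.61, 10.52 and 10.71 in controls and 10.998, 10.71 and 11.24 in wounds, and wound 2 equalled the highest control to 2 decimals. Its difference of 0.37 ± 0.15 was slightly under the median of 0.41 for probe sets of like brightness, and after quantile normalization it was -0.03 (limma adjusted p = 0.37 and 0.967). CDH3, chosen after its values were seen, measured 6.91, 6.88 and 6.76 in controls and 7.20, 7.35 and 7.50 in wounds, a difference of 0.50 ± 0.09 where like probe sets had 0.15 (limma adjusted p = 0.0768). CDH17, the cadherin of intestine and liver in mammals, differed by 1.68 ± 0.70, with 2.67, 3.84 and 2.91 in controls and 3.48, 5.76 and 5.22 in wounds. Controls 1 and 3 were dimmer than the median probe set, and wound 1 lay below control 2, so that the groups overlapped (limma adjusted p = 0.399).

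CDH11 is a cadherin of mesenchymal cells, and CDH13 lacks a cytoplasmic tail. At their chosen probe sets, neither was brighter in any wound than in the control of its number. CDH11 read 9.70, 9.999 and 10.05 in controls and 9.66, 8.96 and 9.84 in wounds, and CDH13 read 6.49, 6.18 and 7.25 against 5.80, 5.25 and 7.25. The differences of -0.43 ± 0.26 and -0.54 ± 0.62 did not pass (limma adjusted p = 0.628 and 0.864). A further CDH11 probe set was brighter in wound 1 than in control 1 (7.32 against 7.05), with a difference of -0.39 ± 0.33 (limma adjusted p = 0.79). CDH8 rests on a probe set of doubtful identity: the chosen one is bright (8.45, 8.43 and 8.70 in controls, 8.66, 8.68 and 8.55 in wounds), is marked by its name as antisense and open to cross-hybridisation, and the other 3 CDH8 probe sets had means from 2.37 to 3.25. The remaining 10 cadherins each differed by less than 0.1, and 0 of these 10 passed.

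**Figure D3:**
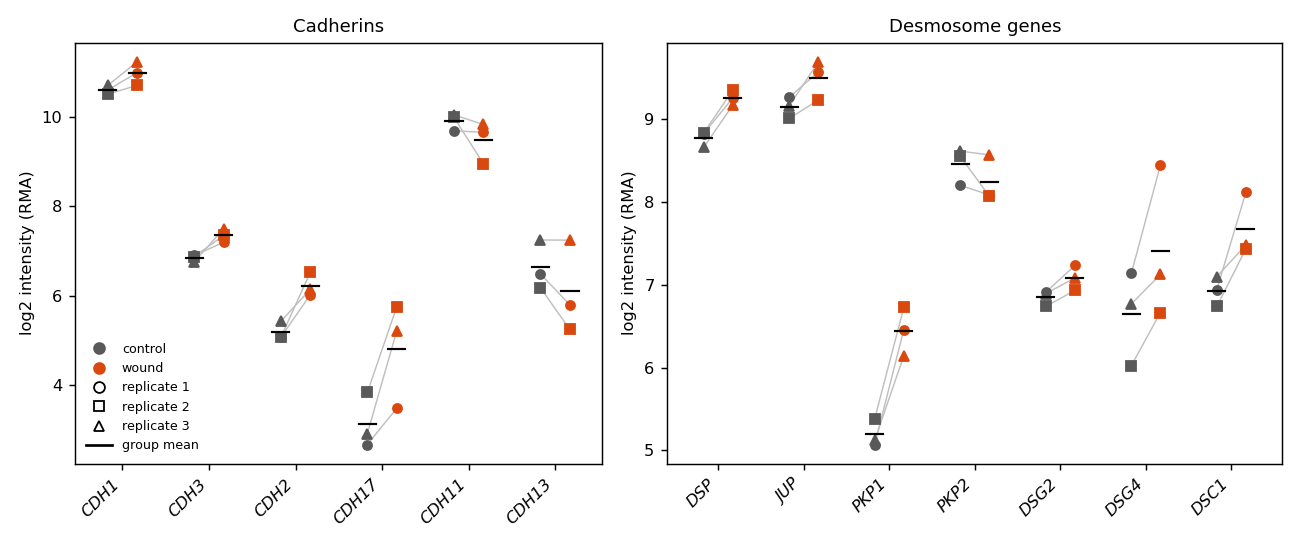
Log2 intensity on each of 6 arrays (y axis) for 6 cadherins (left) and 7 desmosome genes (right). Grey symbols are controls, orange symbols wounds, symbol shapes replicate numbers, thin lines join equal numbers and black bars are group means. PKP1 and CDH2 show separate groups more than 1 log2 unit apart in their means, CDH17, DSG4 and JUP overlap, and the lines of CDH11, CDH13 and PKP2 do not rise.

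Neighbours on the chromosome, by the gene order of the RefSeq table, included a run of 4 members, CDH2, DSC1, DSG4 and DSG2, with no other protein-coding gene between them. All 4 were brighter in each wound than in the control of equal number, beside 32.8% of all genes. They differed by 1.04, 0.75, 0.77 and 0.24 on average, and 0 of 4 passed the test. CDH1 and CDH3, as well as CLDN1 and CLDN16, are neighbours with a higher mean in wound, which for CDH1 turned to -0.03 after quantile normalization and for CLDN16 rested on wound 3 alone. PCDH10 and PCDH18, as well as CDH8 and CDH11, are neighbours that differed in opposite directions. In the remaining pairs of neighbours, CDH6 and CDH9, CDH10 and CDH12, and CDH7 and CDH19, each gene differed by less than 0.1.

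Tight junction genes held the firmest single result. CLDN1, a claudin needed for the skin barrier in mice, measured 11.56, 11.51 and 11.42 in controls and 12.30, 12.28 and 12.27 in wounds. The arrays of each group lay close together and far from those of the other group, and CLDN1 rose 1.72-fold (limma adjusted p = 0.0109, and 0.0417 with the block). Probe sets as bright as CLDN1 had a median difference of 0.36. After quantile normalization the CLDN1 difference was 0.44 and did not pass (limma adjusted p = 0.0816).

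CLDN10, whose product forms ion channels between epithelial cells, measured 3.69, 4.40 and 4.26 in controls and 4.96, 5.78 and 5.18 in wounds. The groups were separate, but the difference of 1.19 ± 0.30 did not pass (limma adjusted p = 0.151). CLDN3, a barrier-forming claudin, read 9.54, 9.85 and 9.54 in controls and 9.66, 10.03 and 9.92 in wounds, a difference of 0.22 ± 0.14 that was smaller than that of probe sets of like brightness (0.33) and was -0.10 after quantile normalization. CLDN11, known from myelin and testis in mice, was lower in every wound (3.73, 3.99 and 3.70 in controls, 3.004, 3.13 and 3.49 in wounds), by -0.60 ± 0.16 (limma adjusted p = 0.171). CLDN16, a claudin of kidney magnesium transport in mammals, was dim on 5 arrays (2.49 to 2.54) and read 4.67 in wound 3 alone.

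The scaffold TJP1 and the membrane protein occludin, which occur in most tight junctions, showed no separation. TJP1 measured 7.02, 6.87 and 7.25 in controls and 6.80, 7.07 and 7.23 in wounds, a difference of -0.01 (95% CI -0.41 to 0.39). OCLN measured 5.24, 4.22 and 4.70 against 4.89, 4.70 and 5.38, a difference of 0.27 (95% CI -0.57 to 1.12). Both intervals leave room for a change in either direction, more so for OCLN, whose control arrays spread over 1 log2 unit.

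Protocadherins, a large family best known from neurons, were on balance not brighter in wound: 11 of 15 lay below 0 and 7 were lower in all 3 comparisons of equal number, beside 17.2% of all genes, with differences under 0.1 in 4 of the 11 and 2 of the 7. PCDH18 measured 3.72, 3.85 and 3.61 in controls and 2.83, 2.94 and 3.06 in wounds. Its groups were separate and it fell by 0.78 ± 0.09 (limma adjusted p = 0.0307, and 0.0911 with the block). The wound arrays lay about the median brightness of the array (3.05), and the mean of PCDH18 exceeded that median only through the controls, so the size of the drop is uncertain. PCDH12, a protocadherin of endothelium in mice, showed the same order at 3.83, 3.93 and 3.83 against 3.28, 3.26 and 3.50, and missed the threshold (difference -0.52 ± 0.08, limma adjusted p = 0.0517).

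PCDHGA2 was the bright member of the family, with 9.49, 9.75 and 9.79 in controls and 7.92, 8.09 and 9.27 in wounds. Its difference of -1.25 ± 0.40 did not pass (limma adjusted p = 0.244), and wound 3 was again nearest to the controls. The name of its probe set marks probes shared by several transcripts, and genes of the gamma cluster share exons, so the value cannot be assigned to PCDHGA2 alone. The same mark is in the names of other chosen probe sets, among them those of CLDN1, CDH2, GJA1, DSC1, TJP1, PCDH1 and PCDH12. PCDH1 read 5.74, 5.60 and 5.60 against 5.45, 5.11 and 5.57 (difference -0.27 ± 0.13, limma adjusted p = 0.484). PCDH10 was the protocadherin with the largest difference upward, from 3.53, 3.53 and 3.50 to 3.71, 3.80 and 4.15 (0.36 ± 0.12, limma adjusted p = 0.28). Most endothelial markers, given above, and most fibroblast markers, given below, were lower in wound like PCDH12, PCDH18 and PCDHGA2. The part of either list was not tested.

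**Figure D4:**
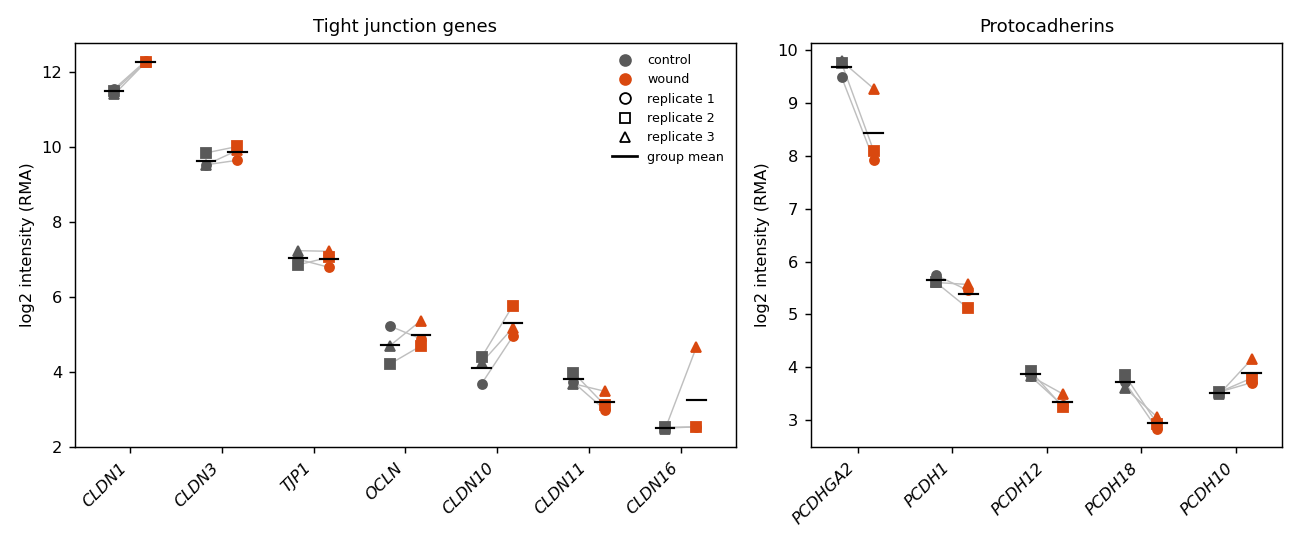
Log2 intensity on each of 6 arrays (y axis) for 7 tight junction genes (left) and 5 protocadherins (right). Grey symbols are controls, orange symbols wounds, symbol shapes replicate numbers, thin lines join equal numbers and black bars are group means. CLDN1 moves from about 11.5 to 12.3 with little spread, TJP1 and OCLN overlap, CLDN16 is raised in wound 3 alone, and PCDHGA2 is lowest in wounds 1 and 2.

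Epithelial markers lay above 0, as did CLDN1, PKP1, GJB6 and CDH3. Of 14 epithelial markers measured out of 23 listed, 14 had a higher mean in wound, 8 were higher in every wound than in any control, beside 20.8% of all genes, and the median was 0.67. The test was passed by 3, beside 3.92% of all genes, namely the adhesion molecule EPCAM (0.73), the keratin KRT75 (5.98) and the splicing regulator ESRP2 (0.77), and by 0 with the block (adjusted p = 0.0541, 0.0571 and 0.0788). Probe sets of like brightness had median differences of 0.28, 0.13 and 0.33 in the same order. After quantile normalization KRT75 passed, and EPCAM and ESRP2 did not (limma adjusted p = 0.0313, 0.0581 and 0.139). TP63, ST14 and SFN differed by 0.10, 0.11 and 0.01. The median of the list was 0.40 after quantile normalization. The summed linear intensity of the list ranged from 12563 to 13511 in controls and from 21813 to 23068 in wounds, and no marker was dim on all arrays. The sum over all genes was higher in wounds too, at 2.93e+06 to 3.07e+06 against 2.45e+06 to 2.60e+06 in controls. KRT5, a keratin of basal epithelial cells, read 6.87, 2.81 and 2.35 in controls and 9.13, 5.52 and 7.10 in wounds. Control 1 and wound 1 were the highest of their groups in KRT5, KRT6A and GRHL3, as in GJB6, and not in the other epithelial markers measured. This order was not particular to epithelial genes. It was also seen in GJA1, DSG2 and DSG4, in the fibroblast marker FAP and in the myeloid marker FCER1G. The part of these markers in the junction values was not tested.

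Of the other cell type markers, 16 of 17 myeloid genes were measured. By the test 11 of them were higher in wound and 0 lower (median 2.09), beside 3.92% and 0.392% of all genes. In the blocked fit 2 were higher, beside 1.31% of all genes. Fibroblast markers (10 of 11 measured, median -0.58) had 1 lower and 0 higher, beside 0.392% and 3.92% of all genes. With the block, 0 fibroblast markers were lower and 1 higher, beside 0.138% and 1.31%. Of these 10, 9 lay below 0, and their median by equal number was -0.68, -1.09 and -0.18, the last for wound 3. Smooth muscle markers (7 of 10 measured, median -0.57) had 0 past the test, and their median by equal number was -0.87, -1.92 and 0.57, so that wound 3 stood apart. Markers of the shell-side epithelium (4 of 5 measured, median -0.30), lymphocytes (8 of 12, median 0.01) and erythroid cells (5 of 11, median -0.04) had 0 past the test. Of the 8 lymphocyte markers, 4 were dimmer than the median probe set on all arrays. In 2 of the 8, CD3D and CD3E, every wound exceeded every control, beside 20.8% of all genes, and in 0 every wound lay below. They rose by 1.36 ± 0.21 and 0.66 ± 0.20 (limma adjusted p = 0.0554 and 0.226). Array medians of all probe sets lay between 3.01 and 3.05, and the lowest correlation between any pair of arrays was 0.965.

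Outside the named families, 48 partner genes of the same junctions were listed and 37 measured, and 0 passed the test in either direction (limma, with 5 higher and 6 lower at an unadjusted p under 0.05, beside 17.5% and 5.93% of all genes, and 0 and 0 with trended variances). CTNNB1 (beta-catenin), which links cadherins to alpha-catenin, read 11.29, 11.44 and 11.59 in controls and 11.86, 11.86 and 12.03 in wounds (difference 0.48 ± 0.09, limma adjusted p = 0.0941). Probe sets as bright as CTNNB1 had a median difference of 0.38, and after quantile normalization its difference was 0.11 (limma adjusted p = 0.715). The polarity kinase PRKCI (0.82 ± 0.18) had the highest difference of the list and the scaffold MAGI2 (-1.16 ± 0.39) the lowest (limma adjusted p = 0.113 and 0.269). ESAM, an adhesion molecule of endothelial tight junctions, read 5.96, 6.11 and 5.97 in controls and 5.37, 5.12 and 4.80 in wounds (limma adjusted p = 0.0714). The alpha-catenin CTNNA1 and CTNND1, which binds the cadherin tail near the membrane, differed by 0.18 ± 0.11 and -0.20 ± 0.07 (limma adjusted p = 0.624 and 0.304). The plakin PPL, a desmosome-associated protein, differed by 0.58 ± 0.28 (limma adjusted p = 0.477). The median over the 37 partners was 0.00.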

How the data were processed

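Wound and control CAM from 3 eggs were profiled on 6 Affymetrix chicken arrays. The authors deposited log2 intensities per probe set, named as RMA in the results section of the study and in the submitters' processing notes, of a version not given in the sources used here. Scaling by the scanner software, also named in the methods, yields linear signals, which these log2 values (1.16 to 15.1) cannot be. The exact normalization behind the deposited values is not stated, and they differ between wound and control with brightness, as given above. The arrays carry no counts, so precision is limited by their number. There were 0 unused columns of per-sample values, and 96 Affymetrix control probe sets were left out.

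Names came from the platform annotation, in which 27168 probe sets have 1 symbol, 177 several and 11094 none, and none was named from a probe set with several. This left out 2 probe sets of PCDHAC1 and PCDHAC2 together. The gene IDs of 72 of 73 members were found in the RefSeq gene table, which was used for names and gene order alone, and GJD3 was not. No genome or sequence was used.

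Wound was compared with control in limma 3.58.1 and R 4.3.3 (lmFit, eBayes), Benjamini-Hochberg over 38439 probe sets, threshold 0.05. The methods name two-class SAM with a rank statistic, whose few relabellings of 6 arrays led to its replacement by limma here. By its own test and a fold over 2, the study lists GJB6, PKP1 and CDH2 among its up-regulated genes. Of these, only PKP1 passed the limma test. Differences are of log2 means, and fold changes are 2 to that power. Genes named were those past the test, the 10 highest and 10 lowest differences, the 3 brightest of each class, CDH1, CDH2, GJA1, OCLN, TJP1, DSP, JUP, GJB6 and PKP1, and genes with a passing or discordant other probe set. Of the junction genes, 30 met this rule, and others named were chosen after their values were seen. The members, the gene lists and this rule were chosen with earlier results of these data known.

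Wound and control were taken from each egg, although no label or method ties equal replicate numbers to 1 egg. Once group means were removed, the correlation of wound and control arrays with equal number was 0.58, 0.63 and 0.45 over probe sets. Equal numbers were therefore treated as pairs in the blocked fit and in comparisons by equal number. The main fit, with its SEs, intervals and adjusted p, was unpaired. The blocked fit is given where it changes a call or a count of calls. The alternatives comprised quantile normalization, median centring, leaving out dim probe sets, the block, trended variances, the mean of a gene's probe sets, other thresholds and leaving out each array. The block with the filter, and the reference to probe sets of like brightness, were added after seeing the data. The main unpaired fit was tried on simulated arrays, drawn independently and without the pairing or the shift with brightness seen in the data. Tables were made with pandas 2.3.3 and numpy 2.4.6, and plots with matplotlib 3.10.9, in Python 3.11.15.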

Additional observations from a re-analysis of the deposited data

How the results depend on the processing

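Of 73 members, 2 were higher and 2 lower by the reported test. After quantile normalization 0 and 0 passed. With arrays centred on their medians 4 were higher (GJB6, DSP, PKP1 and CLDN1) and 3 lower (CDH4, PCDH18 and PCDH12). The mean of a gene's probe sets gave the same 4 higher and 3 lower. With trended variances 3 were higher (GJB6, PKP1 and CLDN1) and 3 lower (CDH4, GJA4 and PCDH18). With dim probe sets left out, 38 members remained, and CDH4 was no longer tested. Of these, 6 were higher (CDH3, CDH2, GJB6, DSP, PKP1 and CLDN1) and 4 lower (GJA4, GJA5, PCDH18 and PCDH12). PCDH18 passed this filter only through its controls. No share over all genes is given for the filtered fits, quantile normalization or centred arrays. The same holds for the mean of probe sets, the adjusted p under 0.1 and leaving out each array. Counts from these settings are therefore not set against a background. A fold change over 2 left 1 higher and 0 lower, and an adjusted p under 0.1 gave 7 and 4. Leaving out each array in turn gave 0 to 3 higher and 0 to 6 lower. Without control 2, 0 members passed in either direction, and without control 3, wound 1 or wound 2 CLDN1 alone passed. Without control 1, CLDN1 and CDH4 passed. Without wound 3 the 6 lower were CDH4, GJA4, GJA5, PCDHGA2, PCDH18 and PCDH12.

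With the replicate number as a block, 1 member was higher (CLDN1) and 0 lower, and calls of PKP1, CDH4 and PCDH18 were lost. The block together with the filter, which tests fewer probe sets, gave 8 higher and 4 lower, again without a share over all genes. Of the other probe sets of members, those of GJB6 and DSP lost their calls. Among the markers, EGFL7, EPCAM, KRT75, ESRP2 and TCF21 lost theirs, myeloid genes went from 11 higher to 2, and FAP gained a call. The block changed no other call among the 30 junction genes that the naming rule takes.

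Among 37 partners, where 0 passed, the filter gave 1 higher (PRKCI) and 1 lower (ESAM), the mean of probe sets 2 higher and 1 lower, the block with the filter 3 and 3, and leaving out each array 0 to 1 higher and 0 to 1 lower. The median of the cadherins was -0.00 and 0.24 with the filter (with or without the block), that of the connexins -0.00 and -0.45, and that of the protocadherins -0.02 and -0.27, since the filter leaves out the dim genes near 0. Leaving out each array, the connexin median ranged from -0.011 to 0.0080, and was above 0 without control 2 or wound 3. Quantile normalization turned the sign of CDH8 to -0.16, of CDH1 to -0.031 and of CLDN3 to -0.10, and TJP1, at -0.01, ranged from -0.11 to 0.11 on leaving out each array and was above 0 without control 3 (0.09) and without wound 1. Where not stated, the cause was not tested.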
